A study of Homo sapiens with 2 samples.

Results

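The genes described here are the protein-coding genes of human chromosome 19 whose symbol is ZNF followed by digits, with an optional letter. Of 246 such genes in the GRCh37 annotation, 244 were matched by Ensembl ID to the deposited count tables, which list 63677 gene IDs, 19488 of them protein-coding; the IDs of ZNF229 and ZNF8 were not matched. RNA sequencing was done on MDA-MB-231 cells, an established line from a triple-negative human breast cancer with mesenchymal-like growth. In the treated group, 1 library came from cells given Carpesium cernuum extract (CCE), a plant extract and so a mixture of compounds, at 1 µg/mL for 24 h. In the control group, 1 library came from control cells of the same line, and the labels do not say what they received in place of the extract. The genes were chosen by name and position, but the set was selected on its ratios of library-scaled counts in these same libraries, so the CCE values against control are a description with no test.

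Most C2H2 zinc finger genes of chromosome 19 arose by tandem duplication and stand in clusters. The fingers of their proteins read DNA, and in many a KRAB domain at the other end binds the corepressor TRIM28 (KAP1). TRIM28 in turn recruits the histone methyltransferase SETDB1 and the NuRD complex, which deposit H3K9 trimethylation and remove histone acetylation, chiefly over transposable elements. The same mark covers the 3′ ends of many ZNF genes themselves.

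The CCE library held 34884501 counts on genes and the control library 5633569, so that 1 count was worth 0.0283 CPM (counts scaled to a common library size) in the CCE library and 0.180 CPM in the control library. The shallower control library set the precision: at equal expression, 20 control counts gave an exact 95% counting interval of 0.620- to 1.69-fold and 100 gave 0.809- to 1.25-fold. These intervals cover counting error only, not the spread between cultures, and reads copied by PCR are not independent molecules. The line's markers were present, with VIM (vimentin) at 1801 CPM in the CCE library and 3739 CPM in the control library, while ESR1 (estrogen receptor) had 0 counts in both and CDH1 (E-cadherin) had 1 count in the CCE library and 0 in the control library. ERBB2 (HER2) was at 51.8 CPM in the CCE library and 55.4 CPM in the control library, and EPCAM at 7.50 CPM in the CCE library and 10.1 CPM in the control library. RNA came from whole cultures, so more cells carrying a transcript and more of it per cell cannot be told apart.

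The promoters of these genes often hold an ETS motif, a feature that the choice of genes did not use. RefSeq promoters (GRCh38.p14, 250 bases before to 50 after the start) were at hand for 214 of the 244 genes, among 15318 protein-coding promoters. The ETS factor motif CCGGAAG, searched on both strands, was found in 98 of the 214 (45.8%) and in 14.4% of all promoters. The 4 promoters below are shown because they span the response. ZNF616 (chr19:52139889-52140188, minus strand) and ZNF461 (chr19:36666788-36667087, minus strand) belong to the genes with the highest ratios and hold the motif. ZNF14 (chr19:19733063-19733362, minus strand) was the highest gene counted on more than a few control reads and holds none. ZNF724 (chr19:23250345-23250644, minus strand) was among the lowest and holds it. Each is written 5′ to 3′ along the gene, with the ETS motif or its reverse complement CTTCCGG in capitals.
ZNF616: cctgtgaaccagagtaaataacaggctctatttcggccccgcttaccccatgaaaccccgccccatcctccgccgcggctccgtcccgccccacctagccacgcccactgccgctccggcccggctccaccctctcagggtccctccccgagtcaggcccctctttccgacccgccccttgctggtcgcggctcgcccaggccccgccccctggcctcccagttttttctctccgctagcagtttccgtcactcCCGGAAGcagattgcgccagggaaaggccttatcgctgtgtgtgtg
ZNF461: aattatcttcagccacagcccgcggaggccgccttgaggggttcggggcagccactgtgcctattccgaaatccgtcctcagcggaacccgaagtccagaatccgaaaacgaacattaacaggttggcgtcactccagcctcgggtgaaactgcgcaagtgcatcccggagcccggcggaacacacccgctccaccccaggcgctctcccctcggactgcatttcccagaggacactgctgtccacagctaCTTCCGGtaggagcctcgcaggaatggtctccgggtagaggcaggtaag
ZNF14: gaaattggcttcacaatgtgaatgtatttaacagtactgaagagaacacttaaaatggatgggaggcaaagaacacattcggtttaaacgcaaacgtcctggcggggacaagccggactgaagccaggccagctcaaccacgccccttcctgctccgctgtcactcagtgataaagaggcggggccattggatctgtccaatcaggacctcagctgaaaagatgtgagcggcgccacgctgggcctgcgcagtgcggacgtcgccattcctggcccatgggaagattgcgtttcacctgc
ZNF724: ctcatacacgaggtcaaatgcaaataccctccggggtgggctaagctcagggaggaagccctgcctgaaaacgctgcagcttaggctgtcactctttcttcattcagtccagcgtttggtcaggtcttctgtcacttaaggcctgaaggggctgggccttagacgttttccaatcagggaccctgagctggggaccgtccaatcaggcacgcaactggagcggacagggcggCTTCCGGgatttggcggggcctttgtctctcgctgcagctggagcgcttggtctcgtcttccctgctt
Measured genes whose promoter holds it had a median log2 ratio, CCE over control, of 0.43 (84 genes), and those without had 0.51 (100 genes). Its share differed between clusters, from 72.4% in the ZNF101 to ZNF254 cluster and 69.2% in the ZNF264 to ZNF446 cluster to 8.33% in the ZNF653 to ZNF791 cluster. The core of the antioxidant response element bound by NRF2, TGACNNNGC, was found in 14.5% of the ZNF promoters and 14.3% of all promoters. The CREB motif TGACGTCA stood in 3.27% of ZNF promoters and 2.63% of all, and the YY1 core ATGGCGGC in 4.67% of ZNF promoters and 4.596% of all. A longer YY1 motif that contains this core stood in 0.935% of ZNF promoters and 1.40% of all, the NRF1 motif in 2.34% of ZNF promoters and 1.73% of all, and the ZNF143 motif in 0.935% of ZNF promoters and 0.392% of all. Each was searched on both strands. Median GC content was 59.8% over the ZNF promoters and 63% over all promoters. Genes copied in tandem have related promoters, so matches within a cluster are not independent. A match of letters is a description of the window and not a bound site.

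In the CCE library, chromosome 19 ZNF genes were on the whole higher than in the control library. Of 244, 204 were measured, meaning a mean of at least 1 CPM over both libraries. Of these, 195 reached 1 CPM in each library, 5 in the CCE library alone and 4 in the control library alone. Their summed scaled counts over all 244 were 2972 CPM in the CCE library and 2140 CPM in the control library. The median log2 ratio of scaled counts over the measured genes was 0.46, with quartiles of 0.04 and 0.87, and 157 of the 204 (77.0%) had a ratio above 0. The counting interval lay above 0 in 103 genes, below 0 in 14, and included 0 in 87.

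At least 2-fold higher with an interval that excluded 1 were 38 of the 204 (18.6%), beside 4.36% of all 14424 measured genes and 3.26% of measured protein-coding genes. At least 2-fold lower were 3 (1.47%), beside 4.92% of all measured genes and 4.33% of protein-coding ones. Of the 3, ZNF491 and ZNF724 reached 1 CPM in the control library alone, so they passed the filter through the library in which they were high. The 5 genes that reached 1 CPM in the CCE library alone likewise passed through the library in which they were high. ZNF610 is among these 5 and among the 38. With 1.5-fold as the limit, 76 (37.3%) were higher and 8 lower, beside 12.1% higher and 11.3% lower of all measured genes. Since the genes were chosen with this contrast known, these shares are given side by side and nothing is read from the difference.

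**Figure D1:**
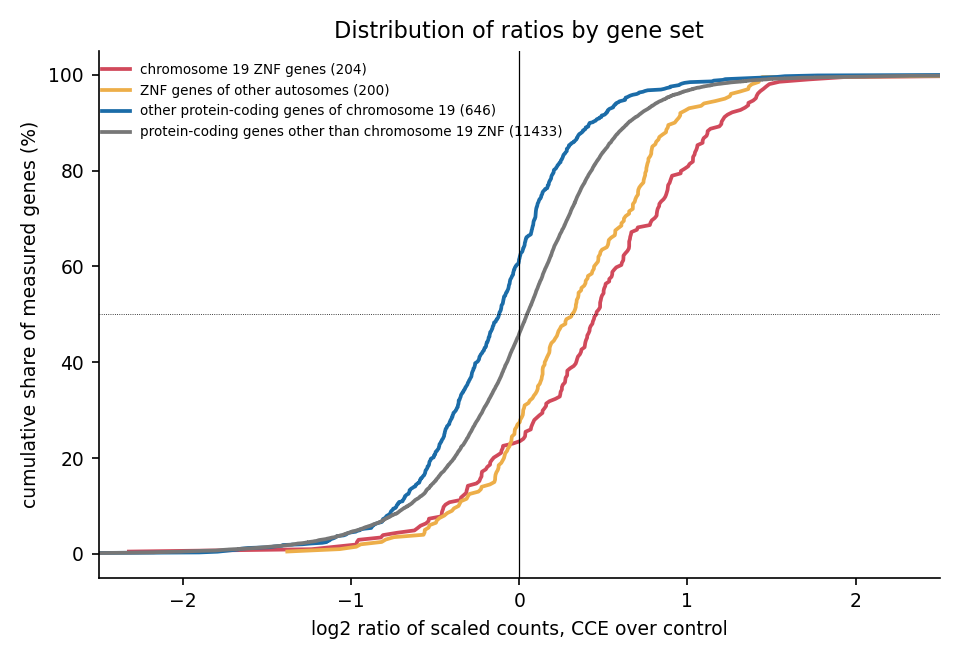
The horizontal axis gives the log2 ratio (CCE over control, scaled counts) and the vertical axis the cumulative percentage of measured genes at or below it, with 1 line per gene set. The line for the 204 chromosome 19 ZNF genes crosses 50% at 0.46, to the right of ZNF genes of other autosomes (0.32), all other protein-coding genes (0.05) and other protein-coding genes of chromosome 19 (-0.12).

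ZNF genes elsewhere in the genome lay on the same side. Of 246 ZNF genes on other autosomes, 200 were measured, with a median log2 ratio of 0.32, and 15 (7.50%) were at least 2-fold higher and 2 lower. The neighbours on chromosome 19 lay on the other side. Its 646 other measured protein-coding genes had a median of -0.12, with 9 (1.39%) at least 2-fold higher and 27 lower. These neighbours are rich in G and C, with a median exon GC content of 59.7%, against 43.5% in the ZNF genes. With 1 library per group the differences between these medians were not tested.

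The 2-fold calls did not come from the weakest genes alone. Among the 59 ZNF genes with a mean of 1 to 5 CPM, 11 were at least 2-fold higher and 3 lower, beside 10.6% higher and 14.2% lower of protein-coding genes in that range. Among the 108 at 5 to 20 CPM, 22 were higher and 0 lower, beside 4.43% higher and 5.22% lower. Among the 37 at 20 CPM or more, 5 were higher and 0 lower, beside 1.27% higher and 1.92% lower. The median log2 ratio was 0.42, 0.48 and 0.48 over the 3 ranges from low to high, and -0.04, 0.02 and 0.07 in other protein-coding genes. Of the 204 genes, 49 rested on fewer than 20 control counts and 120 on fewer than 50. Over the genes with at least 50 control counts the median was 0.40. What the difference in depth between the libraries contributes was not tested.

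Base composition moved with the ratio across all genes. In protein-coding genes other than these, the median log2 ratio went down with exon GC content, 0.19 under 40%, 0.13 at 40 to 45%, 0.05 at 45 to 50%, -0.01 at 50 to 55% and -0.11 at 55% and above. In chromosome 19 ZNF genes the medians over the same ranges were 0.35 (29 genes), 0.54 (109), 0.57 (34), 0.34 (9) and -0.22 (23). The ZNF median was thus above that of other genes of like GC content in the 4 ranges under 55% and below it at 55% and above. Across genes, Spearman's rho between ratio and exon GC content was -0.149 over the 204 ZNF genes and -0.228 over 11433 other genes. These are descriptions over genes of a single pair of libraries, and the part of GC content in the ZNF ratios was not tested.

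**Figure D2:**
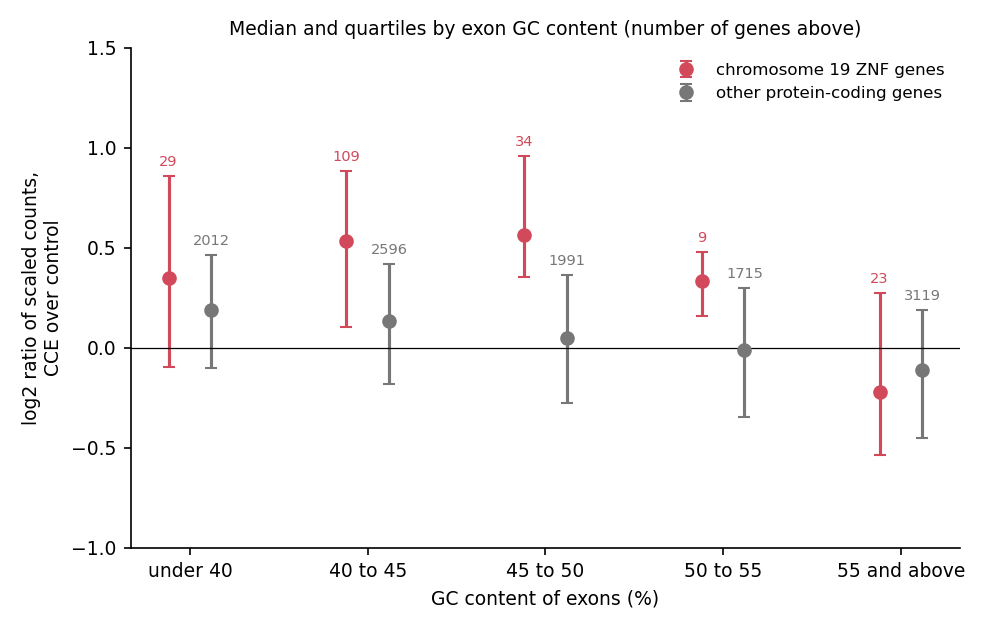
Points give the median log2 ratio, CCE over control (vertical axis), and bars the quartiles, for measured genes in 5 ranges of exon GC content in % (horizontal axis), with the number of genes above each bar. ZNF genes of chromosome 19 stand above other protein-coding genes in every range under 55% and below them at 55% and above.

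Along the chromosome the genes fell into clusters, here runs with no gap over 500 kb between neighbours (GRCh37), and 9 clusters held at least 5 measured genes. By counts the highest median belonged to the ZNF414 to ZNF846 cluster (chr19:8574562-9903856), at 0.82 over 11 measured genes, but by FPKM (pseudocount 1) it was 0.20, below the 0.83 of the ZNF565 to ZNF573 cluster. Of the 11, 7 were at least 1.5-fold higher and 1 lower. Over all measured genes 12.1% were higher and 11.3% lower by this limit. The same shares stand beside the counts of the other clusters below. ZNF846 stood at its top with 130 counts in the CCE library and 7 in the control library (2.92-fold, interval 1.38 to 7.41). ZNF414 was at its bottom with 127 CCE and 39 control counts (log2 ratio -0.96, interval -1.49 to -0.41). ZNF414 is unlike most of the cluster, with an exon GC content of 63.1% and no KRAB motif in its coding sequence. ZNF558, a KRAB repressor, had 857 CCE and 98 control counts (log2 ratio 0.46), and the authors' FPKM values put it on the other side, at 0.356 in the CCE library and 3.41 in the control library.

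**Figure D3:**
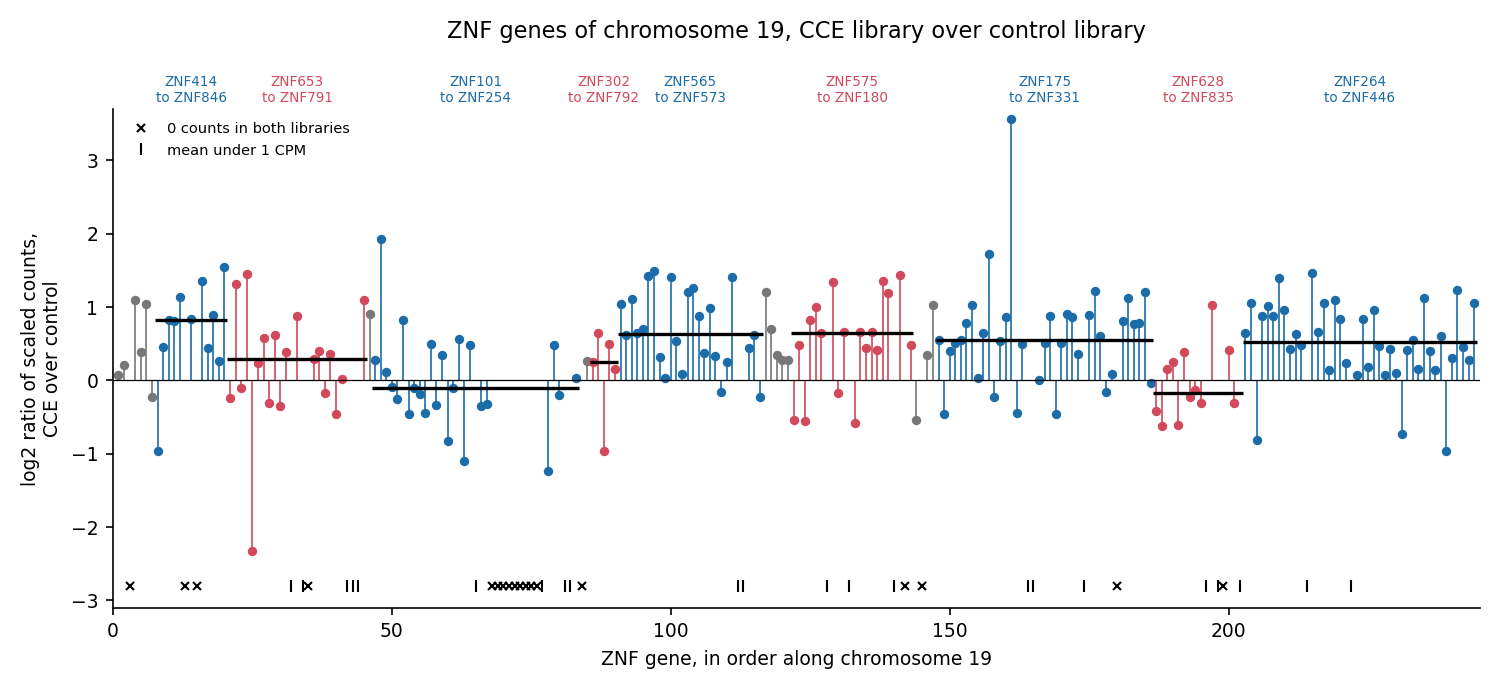
Each stem gives the log2 ratio, CCE over control (vertical axis), of a ZNF gene in its order along chromosome 19 (horizontal axis). Colours alternate between clusters with at least 5 measured genes, grey marks other genes, black bars are cluster medians, crosses at the foot are genes at 0 counts in both libraries and ticks those with a mean under 1 CPM. The ZNF101 to ZNF254 and ZNF628 to ZNF835 clusters have medians of -0.10 and -0.18, and the other 7 lie between 0.25 and 0.82; the median of ZNF101 to ZNF254 is 0.32 over genes free of exon overlap and 0.11 by FPKM (pseudocount 1), and that of ZNF628 to ZNF835 is 0.44 by FPKM.

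The ZNF565 to ZNF573 cluster (chr19:36673178-38307940) had a median of 0.64 over 24 measured genes, with 13 at least 1.5-fold higher and 0 lower. Its first 18 genes, ZNF565 to ZNF875, were all measured and all above 0, from 0.04 to 1.49, and the first 5 of them, ZNF565, ZNF146, ZNF566, ZNF260 and ZNF529, were each at least 1.5-fold higher. These runs were looked for after the values were seen. ZNF461 had the highest ratio, with 196 counts in the CCE library and 11 in the control library (2.80-fold, interval 1.53 to 5.71). By FPKM ZNF461 was nearly level, at 2.19 in the CCE library and 2.11 in the control library. ZNF790 had 372 CCE and 22 control counts (2.66-fold) and ZNF570 had 118 CCE and 7 control counts (2.65-fold, interval 1.25 to 6.74). The lowest, ZNF573, had 98 CCE and 18 control counts, at -0.22 with an interval from -0.96 to 0.59 that includes 0, and its FPKM was 0.572 in the CCE library and 0 in the control library. ZNF146, which consists of zinc fingers with no KRAB domain, was the most strongly counted ZNF gene of the chromosome. It had 5069 counts in the CCE library and 519 in the control library, at a log2 ratio of 0.62 (0.49 to 0.75), but its FPKM ran the other way, at 28.9 in the CCE library and 57.8 in the control library. Its exons overlap those of ZNF565. Without genes whose exons overlap another gene, the cluster median was 0.32.

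The ZNF575 to ZNF180 cluster (chr19:44029649-45004576) had a median of 0.65 over 18 measured genes, with 10 at least 1.5-fold higher and 1 lower. ZNF112 was highest with 206 counts in the CCE library and 12 in the control library (2.70-fold, interval 1.51 to 5.31). ZNF224, a KRAB repressor of the aldolase A gene, had 444 CCE and 44 control counts (log2 ratio 0.67, 0.22 to 1.15), while its FPKM was 2.10 in the CCE library and 3.59 in the control library. ZNF284 was lowest with 182 CCE and 43 control counts (-0.59, interval -1.07 to -0.07). ZNF428 also lay below 0, with 788 CCE and 182 control counts (-0.55, interval -0.79 to -0.31). Its exon GC content is 58.9% and only 1 C2H2 finger was found in its coding sequence.

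The ZNF175 to ZNF331 cluster (chr19:52074536-54083523) had a median of 0.55 over 35 measured genes, all 35 with a KRAB motif. Here 17 were at least 1.5-fold higher and 0 lower. ZNF616 had 566 counts in the CCE library and 27 in the control library (3.30-fold, interval 2.24 to 5.05). ZNF610 had the highest ratio of all, but on 75 counts in the CCE library and 1 in the control library, which gives 11.8-fold with an interval of 2.05 to 472. It reached 1 CPM in the CCE library alone and so passed the filter through the library in which it was high. Next to ZNF331 at the end of the cluster, the 5 successive ZNF genes ZNF845, ZNF525, ZNF765, ZNF761 and ZNF813 were each at least 1.5-fold higher, at 0.78 to 1.20. ZNF331 itself, an imprinted gene, had 694 CCE and 112 control counts (-0.04, interval -0.33 to 0.26). ZNF611 was lowest with 291 CCE and 63 control counts (-0.46, interval -0.86 to -0.04), and its FPKM was on the other side, at 1.02 in the CCE library and 0.491 in the control library.

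The ZNF264 to ZNF446 cluster (chr19:57702868-58992597), next to the end of the chromosome, had a median of 0.52 over 40 measured genes. At least 1.5-fold higher were 15, and 1 was lower. ZNF549 had 475 counts in the CCE library and 27 in the control library (2.77-fold, interval 1.88 to 4.24), and ZNF548 had 350 CCE and 21 control counts (2.62-fold). ZNF304, ZNF547, ZNF548 and ZNF17, 4 successive ZNF genes within 70.7 kb, lay at 0.87 to 1.39. ZNF274 binds the 3′ ends of ZNF genes and recruits SETDB1 there. It had 1631 CCE and 194 control counts (log2 ratio 0.40, 0.19 to 0.63). ZNF587 and ZNF417, close paralogs that silence HERV-K elements, had 318 CCE and 37 control counts (0.44, -0.06 to 0.97) and 123 CCE and 18 control counts (0.10, -0.62 to 0.91), and both intervals include 0. By FPKM ZNF587 was at 1.09 in the CCE library and 1.15 in the control library. ZNF837 was lowest with 59 CCE and 18 control counts (-0.96, interval -1.74 to -0.11). Its exon GC content is 70.1%, and its FPKM of 1.16 in the CCE library and 0 in the control library pointed the other way.

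**Figure D4:**
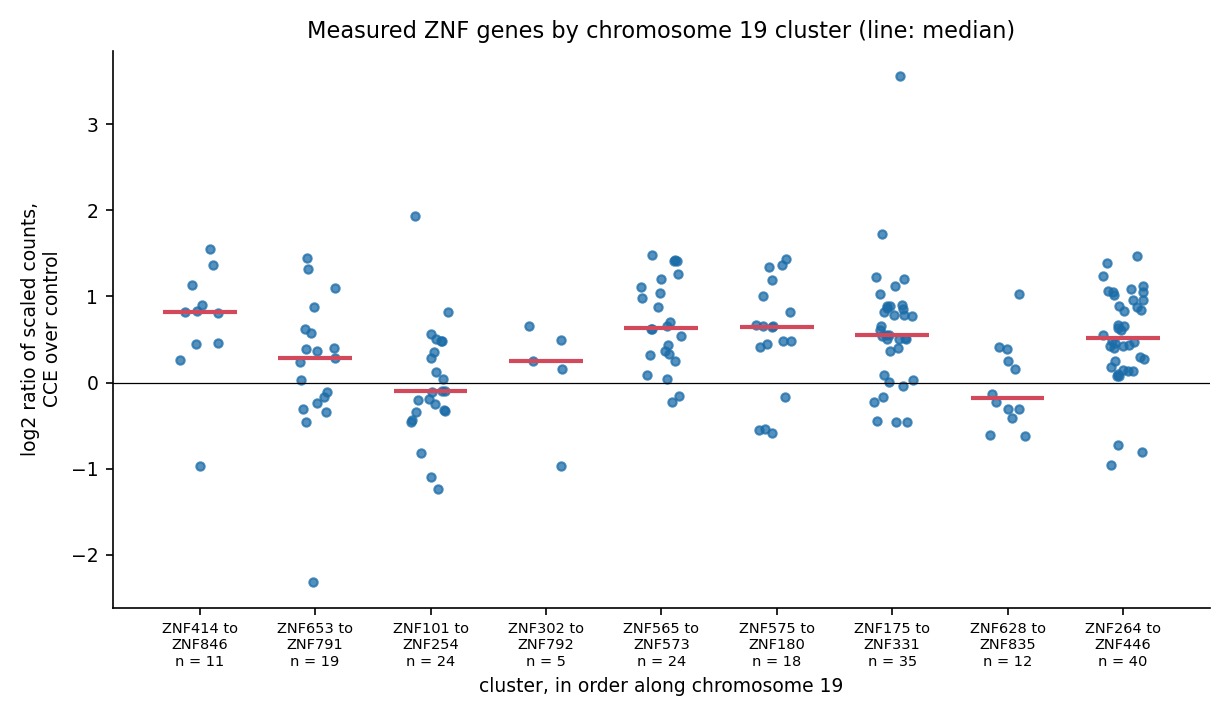
Each point is a measured ZNF gene, at its log2 ratio, CCE over control (vertical axis), in the 9 clusters with at least 5 measured genes in order along chromosome 19 (horizontal axis), and red lines are medians. The highest point, at 3.56, is ZNF610, which had 1 control count, and the lowest, at -2.32, is ZNF491.

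The ZNF653 to ZNF791 cluster (chr19:11594242-12750912) was mixed, with a median of 0.29 over 19 measured genes, 5 at least 1.5-fold higher and 1 lower. From summed counts the log2 ratio of the cluster was 0.57, and with a minimum mean of 5 CPM the median was 0.49. ZNF441 had 487 counts in the CCE library and 28 in the control library (2.74-fold, interval 1.87 to 4.16). ZNF491, the next ZNF gene downstream of ZNF441 and on the same strand, had 14 CCE and 11 control counts and the lowest ratio of all (-2.32, interval -3.57 to -1.04). By FPKM, ZNF491 was listed at 0.136 in the CCE library and 0 in the control library. In the ZNF302 to ZNF792 cluster of 5 genes, the median was 0.25. ZNF181 had 730 CCE and 73 control counts (0.65, interval 0.31 to 1.02), and ZNF599 had 26 CCE and 8 control counts (-0.97, -2.15 to 0.39). At 0.736 CPM in the CCE library and 1.44 CPM in the control library, ZNF599 passed the filter through the library in which it was high.

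The pericentromeric ZNF101 to ZNF254 cluster (chr19:19779605-24312770) had a median below 0, at -0.10 over 24 measured genes, all with a KRAB motif and with a median exon GC content of 38.9%. The direction depended on the setting: the cluster median was 0.32 over genes whose exons overlap no other gene, and 0.11 and 0.23 by FPKM with pseudocounts of 1 and 0.1. Only ZNF14 was at least 1.5-fold higher with an interval that excluded 1. It had 340 counts in the CCE library and 14 in the control library (3.82-fold, interval 2.25 to 7.06), and it stands beside ZNF101 at the start of the cluster. The 3 genes at least 1.5-fold lower were ZNF714 with 169 CCE and 47 control counts (-0.82), ZNF738 with 83 CCE and 28 control counts (-1.10, interval -1.73 to -0.43) and ZNF724 with 27 CCE and 10 control counts (-1.24, interval -2.33 to -0.02). ZNF724 lay on the other side by FPKM, at 0.0819 in the CCE library and 0 in the control library. ZNF91, which silences SVA retrotransposons, had 612 CCE and 69 control counts (0.48, 0.12 to 0.86). ZNF93, which silences L1 elements, had 437 CCE and 82 control counts (-0.25, -0.60 to 0.10).

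The same cluster held a block with no counts. ZNF208, ZNF257, ZNF676, ZNF729, ZNF98, ZNF492, ZNF99, ZNF723 and ZNF728, 9 successive ZNF genes from 22115760 to 23185978 on chromosome 19, had 0 counts in both libraries. A count of 0 allows up to 0.0849 CPM in the CCE library and 0.540 CPM in the control library, taking a floor of 3 counts. In all, 18 of the 244 genes had 0 counts in both. Of the remaining 9, ZNF177 and ZNF625 had an FPKM of 0.296 and 0.132 in the CCE library, and a read-through gene, ZNF559-ZNF177 or ZNF625-ZNF20, overlaps the exons of each.

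The ZNF628 to ZNF835 cluster (chr19:55987984-57183151) was the other one with a median below 0, at -0.18 over 12 measured genes. Of the 12, 10 had an exon GC content of at least 50%, and 3 had a KRAB motif. ZNF579 was lowest with 483 counts in the CCE library and 117 in the control library (-0.62, interval -0.92 to -0.32). ZNF581, whose exons overlap CCDC106 and ZNF580, had 1047 CCE and 192 control counts (-0.22, -0.44 to 0.01), while its FPKM was 13.0 in the CCE library and 6.59 in the control library. ZNF583, a KRAB gene with 38.5% GC, was the only one at least 1.5-fold higher, with 520 CCE and 40 control counts (2.05-fold, interval 1.48 to 2.90), but its FPKM was 1.03 in the CCE library and 1.28 in the control library. By FPKM, on the log2(FPKM + 1) scale, the cluster median was 0.44, and with clusters split only at gaps over 1000 kb it was joined to the next and the median was 0.42.

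Genes outside the larger clusters mostly had ratios above 0. ZNF473, which encodes a component of histone pre-mRNA processing, had 1470 counts in the CCE library and 113 in the control library, at a log2 ratio of 1.03; it and ZNF333 (0.91) were chosen after their values were seen. ZNF114 had 3630 CCE and 451 control counts (0.34, 0.20 to 0.48), and its FPKM went the other way, at 7.91 in the CCE library and 15.1 in the control library. ZNF296, a gene tied to pluripotency in the mouse, had 149 CCE and 34 control counts (-0.54, -1.08 to 0.05), with an exon GC content of 67.4%. ZNF358 had 800 CCE and 147 control counts (-0.22, -0.48 to 0.04). Per kb of exon, ZNF114 was at 34.1 CPM in the CCE library and 26.9 CPM in the control library, and ZNF146 at 34.6 CPM in the CCE library and 22.5 CPM in the control library. ZNF581 was at 18.1 CCE and 21.1 control CPM per kb, ZNF428 at 14.4 CCE and 21.1 control CPM per kb, and ZNF358 at 10.9 CCE and 12.7 control CPM per kb. These 5 had the highest mean level per kb of the chromosome's ZNF genes, and the last 3 had count ratios below 0, though the intervals of ZNF581 and ZNF358 include 0 and ZNF581 was higher in the CCE library by FPKM.

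**Figure D5:**
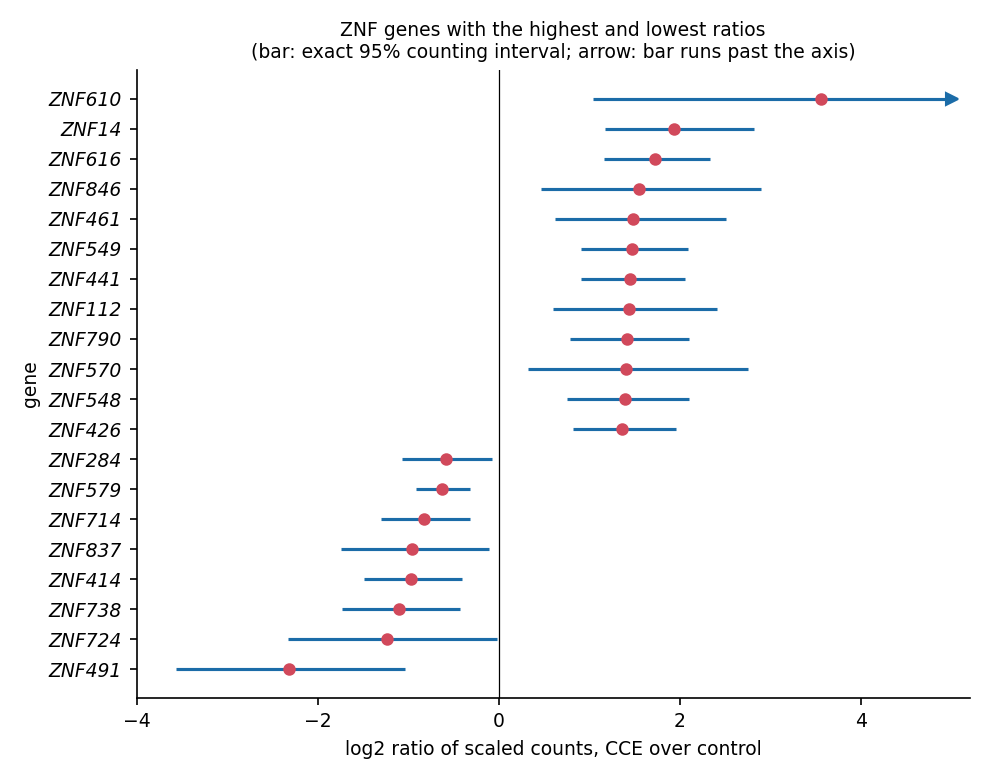
Points give the log2 ratio, CCE over control (horizontal axis), and bars the exact 95% counting interval, for the 12 genes with the highest and the 8 with the lowest ratio among those whose interval excludes 0 (vertical axis). ZNF610, on 1 control count, has a bar that runs past the axis, and the bar of ZNF724 ends at -0.02.

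The 12 highest genes all carry a KRAB motif, as do 172 of the 204 measured genes, and they stand in 7 of the 9 larger clusters. Of the 12, the exons of ZNF610, ZNF14, ZNF461, ZNF441 and ZNF426 overlap no other annotated gene. Beside those given above, ZNF426 had 474 counts in the CCE library and 29 in the control library (2.57-fold, interval 1.77 to 3.88). By FPKM ZNF426 was at 2.97 in the CCE library and 2.47 in the control library. Of the 38 genes at least 2-fold higher, 28 were also higher by FPKM, 5 were lower, and 5, ZNF610 and ZNF441 among them, were listed at 0 FPKM in both libraries. Of the 8 lowest genes, 4 had no KRAB motif, beside 32 of the 204 measured genes. Of these 4, ZNF414, ZNF837 and ZNF579 had exon GC contents of 63.1%, 70.1% and 64.5%.

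Over all genes with a KRAB motif, 172 measured of 207, the median was 0.50, with 70 (40.7%) at least 1.5-fold higher and 4 (2.33%) lower. Over those in which the motif was not found, 32 of 37, it was 0.25, with 6 (18.75%) higher and 4 (12.5%) lower. Of all measured genes 12.1% were higher and 11.3% lower by this limit. The classes differ in base composition, with median exon GC contents of 43.0% with the motif and 59.7% without it. Under 50% GC the medians were 0.51 with the motif (160 genes) and 0.58 without it (12 genes). At 50% GC or more they were 0.32 with the motif (12) and -0.23 without it (20). The motif is a pattern of letters for the core of the KRAB A box, and a gene without a match can carry a divergent box. Genes with up to 12 C2H2 fingers, the median number, had a median of 0.44 (103 genes), and genes with more had 0.48 (100 genes). Among the measured genes ZNF91 had the most matches to the finger pattern, 32.

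Exons of 124 of the 204 measured genes overlap another annotated gene. The strand setting used in counting is not given, so how reads shared with such partners were assigned is not known. Records marked ambiguous were left out of gene counts and made up 1.36% in the CCE library and 1.59% in the control library. Of the 38 genes at least 2-fold higher, 27 were among these 124. The 80 genes free of overlap had a median of 0.41, with 22 (27.5%) at least 1.5-fold higher and 2 (2.5%) lower. The 124 others had 0.49, with 54 (43.5%) higher and 6 (4.84%) lower. These counts stand beside 12.1% higher and 11.3% lower of all measured genes.

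The corepressors that KRAB proteins recruit were also counted. In the list of KAP1 and NuRD genes all 18 were measured, with a median of -0.08, 1 at least 1.5-fold higher and 0 lower, beside 12.1% higher and 11.3% lower of all measured genes. By FPKM (pseudocount 1) the median was -0.51, with 3 higher and 7 lower by 1.5-fold alone, with no interval. The share of all genes past that fold by FPKM was not computed. TRIM28 had 11371 counts in the CCE library and 1904 in the control library (-0.09, interval -0.16 to -0.02). SETDB1 was the gene that was higher, with 1168 CCE and 115 control counts (1.598-fold, interval 1.32 to 1.95), and its exons overlap CERS2. Counting intervals lay above 0 in 6 of the 18 and below 0 in 8, beside 4335 above and 3616 below of all 14424 measured genes. Above 0 were SETDB1, MTA2 (0.56), GATAD2B (0.46), SMARCAD1 (0.39), RBBP4 (0.24) and HDAC2 (0.12). Among those below 0 were TRIM28, the NuRD remodelling ATPases CHD4 (-0.30) and CHD3 (-0.40) and the HP1 gene CBX3 (-0.33). The others below 0 were CBX1 (-0.32), HDAC1 (-0.30), MBD3 (-0.27) and RBBP7 (-0.22). Of the 5 HUSH complex and MORC genes, which extend H3K9 methylation over transposons, the median was 0.17, and 1, MORC2, was at least 1.5-fold higher (0.61), a call lost under upper-quartile scaling, where 0 of the 5 passed. The FPKM-based median of the 5 was below 0, at -0.19 on the log2(FPKM + 1) scale.

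Among 10 measured genes of H3K9 and DNA methylation, the median was -0.003, with 0 at least 1.5-fold higher and 2 lower, beside 12.1% higher and 11.3% lower of all measured genes. By FPKM the median was -0.45 with a pseudocount of 1 and -0.51 with 0.1. The 2 lower genes became 1 under total-count scaling. DNMT1, the maintenance DNA methyltransferase, had 5306 counts in the CCE library and 1279 in the control library (-0.62, interval -0.70 to -0.53). DNMT3B, a de novo DNA methyltransferase, had 172 CCE and 55 control counts (-1.02, interval -1.47 to -0.56). Intervals lay below 0 in 3 of the 10, these 2 and SUV39H1 (-0.40, -0.76 to -0.02). They lay above 0 in 2, EHMT1 (0.52, 0.29 to 0.76) and ATRX (0.31, 0.13 to 0.49). DNMT3A, the other DNA methyltransferase of the list, was at -0.03 (-0.44 to 0.42). UHRF1 was not matched. Beside the ZNF symbols, 18 other zinc finger genes of chromosome 19 were found, and 10 were measured, with a median of 0.37. The 3 at least 1.5-fold higher were ZSCAN5A (180 CCE and 14 control counts, 1.02), ZFP28 (677 CCE and 65 control counts, 0.71) and ZFP36 (513 CCE and 51 control counts, 0.66), the last a CCCH protein that destabilises mRNA and not a KRAB repressor. None of the 10 was lower by that limit. Values of list genes other than TRIM28 and SETDB1 were picked for naming after they were seen.

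The 40 genes under 1 CPM are part of the set too. Beside the 18 at 0 in both libraries, 8 had counts only in the CCE library, 1 only in the control library, and 13 in both. ZNF20 had 55 counts in the CCE library and 0 in the control library. Its ratio was 2.88-fold when a floor of 3 counts stood in for the control count, and the lower limit of its counting interval was 2.27-fold. The other 7 had 1 to 22 counts in the CCE library. ZNF730 had 0 counts in the CCE library and 1 in the control library. These genes do not enter the medians above.

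The authors' FPKM values were a second measure of the same libraries, of unknown depth. Of the 204 measured genes, 25 were listed at 0 FPKM in the CCE library and 85 in the control library, 24 of them in both. Over the 180 with an FPKM, 123 had the same sign by FPKM and by counts, and across genes Spearman's rho between the ratios was 0.245. The median log2 ratio on the log2(FPKM + 1) scale was 0.31, against -0.10 over all protein-coding genes.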

How the data were processed

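RNA sequencing of MDA-MB-231 gave 1 CCE and 1 control library, so no replicate check, test or p-value is possible; the treatment text stands on both samples, and groups came from each sample's treatment label. Per the submitters' processing notes, HISAT2 and the builds hg19 and GRCh37 were used; no source used here names the counting program, its strand setting or how FPKM were made. The authors deposited raw counts per Ensembl gene and, separately, FPKM values on 215170 rows per library with repeated gene IDs, which were summed per gene. The 5 rows of each count table that name no gene were left out of library sizes; they held 66.8% of records in the CCE library and 62.9% in the control library. Records with no unique alignment made up 17.3% in the CCE library and 11.6% in the control library. Unaligned records made up 11.0% in the CCE library and 7.67% in the control library. Reads shared between genes could be lost there, and what this difference contributes to the ZNF ratios was not tested.

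Symbols, coordinates and exons were taken from GENCODE 44 on GRCh37 (lifted), which holds 55665 of the IDs. Libraries were scaled with TMM factors (edgeR 4.0.16, R 4.3.3) over all genes, and ratios carry exact 95% Clopper-Pearson intervals (scipy 1.17.1). KRAB and C2H2 motifs were searched in coding sequences translated from the GRCh37 genome, in place of the RefSeq proteins planned. The translated frame of ZNF274 held a KRAB motif but no match to the C2H2 pattern, so it has no finger count. The procedure was tested on simulated data. The genes and lists were chosen with earlier results of these data known. Named genes were the 12 highest and 8 lowest measured genes whose interval excludes 1, the 5 most abundant per kb, the top and bottom of each cluster with at least 5 measured genes, 10 genes of known role, TRIM28 and SETDB1; others named were picked after their values were seen. Alternatives were other scalings (total counts, upper quartile, DESeq2 1.42.0 size factors), FPKM, other filters, genes free of exon overlap, summed counts and wider cluster gaps; limits on GC content and on control counts, and the GC ranges, were added after seeing the data.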

Additional observations from a re-analysis of the deposited data

How the results depend on the processing

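No paired analysis was possible because each group has 1 library. The median over the chromosome 19 ZNF genes (0.46) was 0.41 to 0.50 under the other scalings (total counts, upper quartile, DESeq2), 0.45 without a filter on low counts, 0.48 at a mean of at least 5 CPM and 0.47 from summed counts. Chosen after seeing the data, exon GC content under 50% gave 0.51, with 36 genes at least 2-fold higher and 3 lower, and at least 50 control counts gave 0.40. The 41 named genes stayed within their counting intervals under all 3 other scalings.

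Total-count scaling left 5 ZNF genes at least 1.5-fold lower, 2 KAP1 and NuRD genes higher and 1 methylation gene lower. Upper-quartile scaling put 5 ZNF genes at least 2-fold lower and 0 HUSH and MORC genes higher. At 5 CPM, 0 ZNF genes passed 2-fold and 4 passed 1.5-fold on the lower side. With no filter, 1 of the other zinc finger genes was lower. Among genes free of exon overlap, which are fewer, 11 were at least 2-fold higher and 0 lower, and 22 at least 1.5-fold higher and 2 lower; the ZNF565 to ZNF573 median was 0.32, and that of ZNF101 to ZNF254 turned from below 0 to 0.32. With gaps of 1000 kb, the cluster that holds ZNF628 to ZNF835 had a median of 0.42.

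The FPKM values moved most. Calls by FPKM, here and in the next paragraph, rest on fold alone with no interval. Those of ZNF genes cover the 180 with an FPKM, and those of lists use 1.5-fold. Shares of all genes called by FPKM were not computed. On the log2(FPKM + 1) scale the median was 0.31, with 55 genes at least 2-fold higher and 15 lower. At least 1.5-fold higher were 72, and 29 were lower. Cluster medians were 0.33 (ZNF264 to ZNF446), 0.20 (ZNF414 to ZNF846), 0.18 (ZNF575 to ZNF180) and 0.44 (ZNF628 to ZNF835), that of KRAB genes 0.36 and that of genes with up to 12 fingers 0.095. KAP1 and NuRD genes had a median of -0.51, 3 higher and 7 lower. HUSH and MORC genes had a median of -0.19. Of methylation genes 1 was higher and 3 lower, and of other zinc finger genes 3 were higher and 1 lower. Among named genes whose counting interval excludes 0, reversed were ZNF491 (0.18), ZNF724 (0.11), ZNF837 (1.11), ZNF611 (0.44), ZNF114 (-0.85), ZNF146 (-0.98), ZNF583 (-0.17), ZNF558 (-1.70) and ZNF224 (-0.57). ZNF581 (0.89), ZNF573 (0.65) and ZNF587 (-0.045), whose intervals include 0, also changed sign.

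On the log2(FPKM + 0.1) scale the median was 0.72, with 84 genes at least 2-fold higher and 25 lower by fold alone. At least 1.5-fold higher were 93, and 38 were lower. Cluster medians were 1.82 (ZNF175 to ZNF331), 2.75 (ZNF565 to ZNF573), 1.20 (ZNF575 to ZNF180) and 0.48 (ZNF628 to ZNF835), those of KRAB genes 0.94, of genes with up to 12 fingers 0.23 and with more 1.18. KAP1 and NuRD genes had a median of -0.53, 4 higher and 8 lower; HUSH and MORC genes -0.21; of methylation genes 2 were higher and 4 lower; other zinc finger genes had a median of 1.36, 5 higher and 1 lower. Reversed by the same criterion were ZNF491 (1.24), ZNF724 (0.86), ZNF837 (3.66), ZNF611 (0.93), ZNF114 (-0.92), ZNF146 (-0.999), ZNF583 (-0.29), ZNF558 (-2.94) and ZNF224 (-0.75), and ZNF581 (0.97), ZNF573 (2.75) and ZNF587 (-0.078) again changed sign. Many of these genes are listed at 0 FPKM in 1 library, so the pseudocount sets part of each value, and the cause of the difference from counts was not tested.

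Depth limits single genes: 49 of the 204 measured genes had fewer than 20 control counts. At equal expression the interval spans 0.620- to 1.69-fold at 20 control counts and 0.514- to 2.20-fold at 10.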

Other observations

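Some ZNF genes of chromosome 19 share a symbol up to a letter suffix, and the members of such pairs are given side by side. How alike their sequences are was not measured, and reads may have been split between them in either direction. The pairs were taken by symbol, after values were seen. ZNF585A had 771 CCE and 66 control counts (log2 ratio 0.88, interval 0.51 to 1.26), and ZNF585B had 230 CCE and 28 control counts (0.37, -0.20 to 0.99). ZNF780B had 228 CCE and 22 control counts (0.71) and ZNF780A had 573 CCE and 71 control counts (0.34). ZNF324B had 428 CCE and 49 control counts (0.46) and ZNF324 had 538 CCE and 70 control counts (0.27). ZNF587B, at 97 CCE and 11 control counts, had 0.47, beside 0.44 for ZNF587. In each pair both ratios were above 0, beside 77.0% of the 204 measured ZNF genes. The counting intervals within each pair overlapped, but intervals are wide at such control counts.

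Across the measured ZNF genes, Spearman's rho of the ratio was 0.127 with the number of C2H2 fingers (203 genes), 0.0916 with exon length and 0.0954 with mean level (204 genes each). These are correlations across genes, which are not independent replicates, and they are weak in a set counted on few control reads.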
